A study of Homo sapiens with 24 samples.

Results

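Estradiol was given for 1 hour to hormone-starved T47D cells, and chromatin accessibility was compared with starved cells that received vehicle. The comparison used 8 of the 24 libraries of the series, 4 with estradiol and 4 with vehicle, and all 189403 accessible regions (peaks) of its count table. Of these peaks, 156745 had enough reads to be tested. T47D is an established luminal breast cancer cell line that expresses the estrogen receptor. The starved estradiol cells were kept for 3 days in phenol red-free medium with charcoal-stripped serum and then received 1 nM beta estradiol for 1 hour. The starved vehicle cells had the same 3 days and then 0.1% DMSO for 1 hour. A further group, complete vehicle, had 1 day in complete medium and 0.1% DMSO for 1 hour, and is used here as a level to set beside the others. The remaining 12 libraries were given fulvestrant, raloxifene or tamoxifen in complete medium. All 24 libraries entered the fit to estimate the spread, and the 16 in complete medium, or all 24, also set the level of a peak where stated. All libraries come from 1 cell line, and the labels do not say whether replicates were separate cultures, so p-values measure only the spread between these libraries.

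Estrogen receptor alpha is a nuclear receptor that binds estradiol and then DNA, most often at distal enhancers, where it recruits coactivators and RNA polymerase. Its response element is a palindrome of a pair of half-sites with a short spacer. Forkhead and GATA factors commonly open luminal enhancers that the receptor uses. The assay, ATAC-seq, inserts adapters with the Tn5 transposase into open DNA, so the reads in a peak measure how accessible it was. In bulk libraries, a peak open in more cells and a peak more open in each cell cannot be told apart.

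Peak sequence was read only where a peak met a promoter window, 300 bases around an annotated start. The following 5 windows, from RefSeq on GRCh38.p14 and written 5′ to 3′ on the strand of the gene, are examples of the full estrogen response element, GGTCA and TGACC with a 3-base spacer, inside a tested peak. They were chosen after their values were seen, as the windows of both peaks with the whole element and of 3 of the 5 higher peaks with it at 1 letter off. In all, 37 tested peaks held the element with at most 1 letter off in such a window, of which 6 were higher and 31 were not called. Capitals mark that element where at most 1 letter was off, and every half-site GGTCA or its reverse complement TGACC. The windows are LINC02130 at chr16:14370217-14370516 (minus strand), LOC105371934 inside RARA at chr17:40322475-40322774 (minus strand), C5AR2 at chr19:47336845-47337144 (plus strand), MICOS10 at chr1:19596729-19597028 (plus strand) and ZNF669 at chr1:247104307-247104606 (minus strand).
LINC02130: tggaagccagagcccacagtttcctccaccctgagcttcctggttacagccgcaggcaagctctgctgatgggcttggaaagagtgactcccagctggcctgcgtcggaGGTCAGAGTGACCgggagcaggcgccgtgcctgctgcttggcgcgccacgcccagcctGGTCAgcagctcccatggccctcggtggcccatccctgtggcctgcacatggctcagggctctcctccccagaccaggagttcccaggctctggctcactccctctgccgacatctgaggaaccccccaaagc
LOC105371934: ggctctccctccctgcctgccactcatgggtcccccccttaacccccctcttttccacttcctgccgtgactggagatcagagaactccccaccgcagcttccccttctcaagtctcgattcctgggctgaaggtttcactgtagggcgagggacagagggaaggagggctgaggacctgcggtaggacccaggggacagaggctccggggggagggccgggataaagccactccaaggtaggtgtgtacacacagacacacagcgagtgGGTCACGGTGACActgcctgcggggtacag
C5AR2: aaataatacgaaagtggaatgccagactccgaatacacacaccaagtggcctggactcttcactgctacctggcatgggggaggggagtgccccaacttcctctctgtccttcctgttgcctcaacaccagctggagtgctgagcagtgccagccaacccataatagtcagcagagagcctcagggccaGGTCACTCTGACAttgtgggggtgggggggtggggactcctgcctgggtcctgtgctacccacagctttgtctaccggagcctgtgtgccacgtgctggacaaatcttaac
MICOS10: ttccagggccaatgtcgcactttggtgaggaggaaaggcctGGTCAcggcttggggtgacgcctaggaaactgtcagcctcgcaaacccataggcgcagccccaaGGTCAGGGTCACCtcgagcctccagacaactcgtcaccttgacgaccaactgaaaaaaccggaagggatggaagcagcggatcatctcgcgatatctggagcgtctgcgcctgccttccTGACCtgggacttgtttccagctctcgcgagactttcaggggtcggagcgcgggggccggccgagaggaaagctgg
ZNF669: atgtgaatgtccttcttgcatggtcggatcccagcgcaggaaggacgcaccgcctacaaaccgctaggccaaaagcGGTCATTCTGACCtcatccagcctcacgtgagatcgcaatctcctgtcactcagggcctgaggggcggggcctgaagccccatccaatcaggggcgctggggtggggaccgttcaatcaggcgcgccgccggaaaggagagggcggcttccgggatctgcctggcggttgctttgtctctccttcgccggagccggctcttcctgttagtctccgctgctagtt
The LINC02130 and ZNF669 windows both hold the full element, and the other 3 hold it with 1 letter off. The peak at LINC02130, a long noncoding RNA gene, had 28.3, 26.3, 31.5 and 30.7 CPM (counts scaled to the same library size) with estradiol, against 15.6, 13.4, 16.04 and 10.8 CPM with vehicle. The groups did not overlap there. The peak at ZNF669, a zinc finger gene, had 57.7, 53.8, 57.6 and 47.1 CPM with estradiol, against 58.0, 54.8, 51.3 and 48.7 CPM with vehicle. These groups overlapped, and the log2 fold change of 0.02 (SE 0.10) did not pass the test, so a full element in an open promoter was found with and without a called change.

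The response to 1 hour of estradiol was almost entirely a gain of accessibility. With estradiol, 1274 peaks were higher and 35 lower than with vehicle (edgeR quasi-likelihood test, Benjamini-Hochberg adjusted p under 0.05), which is 0.813% and 0.0223% of tested peaks, and 97.3% of the called peaks were higher. At an unadjusted p under 0.05 the counts were 5675 higher and 3722 lower of 156745 tested peaks. A share of about 0.05 of unchanged peaks would pass that threshold over both directions. These are thus not counts of changed peaks. The lower count rested on single libraries, at 22, 54 and 19 without estradiol replicate 1, 2 or 4 and 16 without vehicle replicate 2. The median log2 fold change of the higher peaks was 1.45, with quartiles of 1.01 and 1.96, and 960 of them changed at least 2-fold. The median over all tested peaks was -0.01 after TMM scaling, which centres most peaks near 0, so a shift of the whole table cannot be read from it. All 4 estradiol libraries stood above all 4 vehicle libraries in 1182 of the 1274 higher peaks, against 2.49% of all tested peaks. Among the 35 lower peaks, 28 had all estradiol libraries below all vehicle libraries, against 1.33% of all tested peaks.

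The typical gained peak began near the level of the other peaks, with a median of 2.55 CPM in the vehicle group mean, against 2.68 CPM over all tested peaks. The median accessibility of the 1274 peaks was 7.01, 7.57, 7.57 and 7.33 CPM in the estradiol libraries, against 2.54, 2.61, 2.41 and 2.64 CPM in the vehicle libraries. In the 4 complete vehicle libraries it was between 6.71 and 7.24 CPM. These medians combine peaks on both sides of that level. Against complete vehicle, edgeR called 219 of the 1274 peaks lower with estradiol and 265 higher (38.0% together), where the shares over all tested peaks were 7.24% lower and 9.39% higher. The same peaks held between 1.38% and 1.54% of all counts in peaks with estradiol, against 0.687% to 0.718% with vehicle. The 35 lower peaks had medians of 2.63, 2.98, 2.64 and 2.19 CPM with estradiol, against 5.53, 6.09, 4.41 and 4.64 CPM with vehicle. These values chose the peaks and are given as a description.

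**Figure D1:**
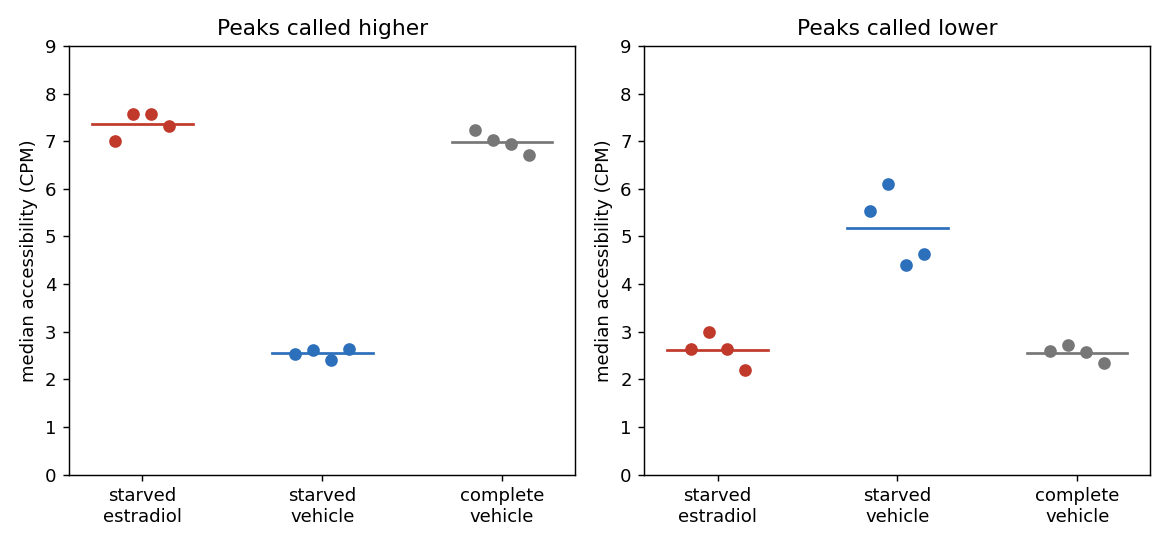
Median accessibility in CPM of the peaks called higher (left) and lower (right), 1 point per library with the group mean as a line, for starved estradiol, starved vehicle and complete vehicle. For the higher peaks the 4 estradiol points lie between 7.01 and 7.57 CPM and the 4 vehicle points between 2.41 and 2.64 CPM.

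Gains occurred at every starting level. Tested peaks were split into quintiles by their mean CPM in the starved vehicle libraries, with limits at 1.22, 2.05, 3.67 and 8.44 CPM. From the lowest to the highest quintile, 1.16%, 0.581%, 0.679%, 0.871% and 0.772% of peaks were called higher. Without vehicle replicate 4 the share in the lowest quintile was 0.710%. The vehicle libraries set both the level and the contrast in that split, so separate replicates were also used for each. With the level taken from replicates 1 and 2 and the change from replicates 3 and 4, the shares were 0.405%, 0.364%, 0.539%, 0.686% and 0.651%. With the sets exchanged, they were 0.663%, 0.478%, 0.469%, 0.606% and 0.510%. The lowest quintile thus had the highest share in the second crossing and not in the first. With quintiles set by all 24 libraries, the lowest held 0.188% and the highest 1.66%, and with quintiles set by the 16 complete-medium libraries they held 0.214% and 1.77%, so the order of the quintiles turned with the libraries that set the level. The filter on low counts used all 24 libraries. A peak weak with vehicle could thus be kept for its reads in another group, estradiol included. With no filter the share in the lowest quintile was 0.654%, below the 0.725% of the highest. With only peaks above the median abundance these shares were 3.18% and 0.874%, so the order of the quintiles also turned with the filter. No lower peak started in the lowest quintile in the shared split, and the other quintiles held 2, 10, 14 and 9. In the crossings, the lowest quintile held 7 lower peaks in the first and 5 in the second.

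Among the peaks called higher, the gain as a fold was largest at weak peaks and, in CPM, at strong ones. The median log2 fold change of higher peaks was 2.12, 1.57, 1.44, 1.08 and 0.75 from the lowest to the highest quintile. The smallest change that passed the test was 1.27 in the lowest quintile and 0.35 in the highest, where the median SE over tested peaks was 0.499 and 0.140. The median gain ran the other way, at 2.00, 3.27, 4.62, 6.02 and 11.3 CPM. The test needed a larger fold at weak peaks, and the vehicle libraries set both the quintiles and the contrast. The order of the folds among called peaks was thus partly fixed in advance and is a description. Over all tested peaks, called or not, the median log2 fold changes were 0.19, -0.02, -0.05, -0.04 and -0.02. The same limit holds for these medians. With level and change taken from separate replicates, the median in the lowest quintile was 0.01 in the first crossing and 0.07 in the second. Of the 364 peaks that began in the lowest quintile, 188 had an estradiol mean in the range of the middle quintile and 82 in that of the fourth.

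**Figure D2:**
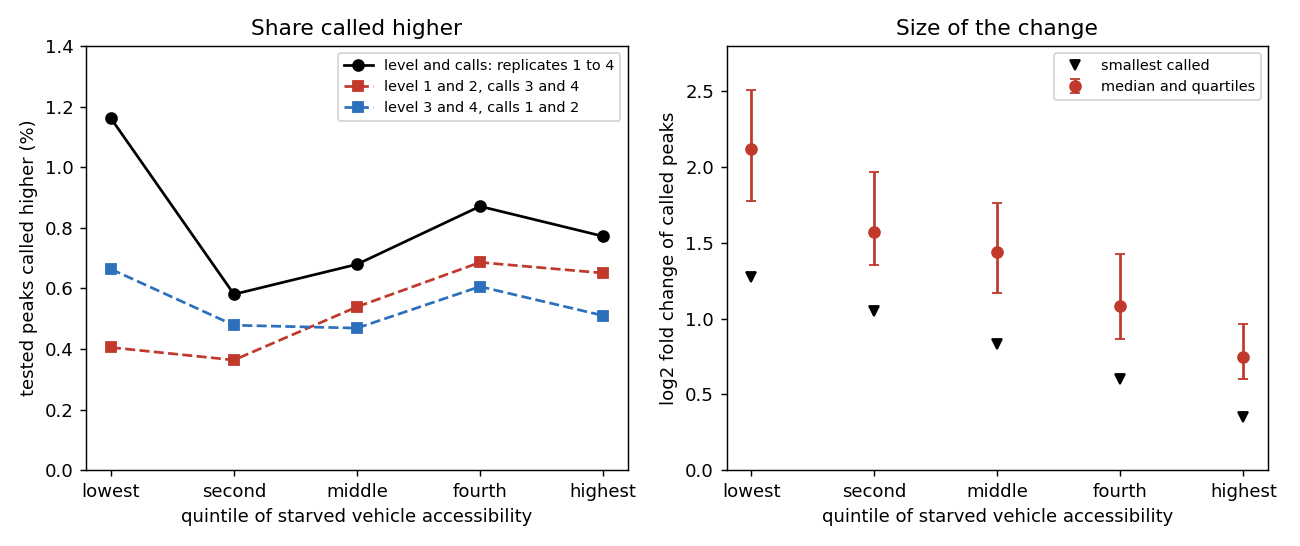
Left, percent of tested peaks called higher in each quintile of starved vehicle CPM, with level and calls from all replicates (black) or from separate replicate sets (red, blue). Right, median and quartiles of the log2 fold change of the called peaks, with the smallest called value as a triangle, which falls from 1.27 in the lowest quintile to 0.35 in the highest.

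Individual peaks show both ends of this range. In the lowest quintile, a peak 11.9 kb from RHOBTB1 (chr10:60848749-60849107), had 8.88, 10.3, 9.35 and 11.3 CPM with estradiol, against 1.04, 0.622, 1.20 and 1.18 CPM with vehicle. Its groups did not overlap, and its log2 fold change was 3.30 (SE 0.29, edgeR adjusted p = 4.52e-14). In the fourth quintile, a peak inside ZMIZ1, which encodes a coactivator of nuclear receptors (chr10:79128630-79128949), had 33.5, 35.9, 41.0 and 44.0 CPM with estradiol, against 5.76, 4.35, 7.22 and 6.19 CPM with vehicle. Its log2 fold change was 2.77 (SE 0.16, edgeR adjusted p = 5.33e-24), the smallest p among the named peaks. In the highest quintile, a peak inside PGR, the progesterone receptor gene (chr11:101034171-101034404), had 39.3, 39.2, 36.8 and 42.4 CPM with estradiol, against 13.9, 10.2, 14.4 and 13.6 CPM with vehicle. Every estradiol library was above every vehicle library at all 3.

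Other higher peaks named for the smallest p at each level also had all estradiol libraries above all vehicle libraries. These peaks and those of the paragraph above were chosen by this contrast. The choice fixed their sign, so their values are a description. Inside ATXN7L1, in the second quintile (chr7:105639992-105640243), the values were 11.01, 12.1, 14.5 and 15.3 CPM with estradiol, against 1.96, 0.870, 2.00 and 2.18 CPM with vehicle. In the middle quintile, a peak 47.2 kb from ZDHHC19, a palmitoyltransferase gene (chr3:196150169-196150429), averaged 19.1 ± 3.48 CPM with estradiol and 3.56 ± 0.916 CPM with vehicle (SD, n = 4 each), and 19.1 CPM in complete vehicle. Inside CADM1, a cell adhesion gene in the highest quintile (chr11:115471477-115471709), accessibility averaged 29.0 ± 3.47 CPM with estradiol and 9.49 ± 0.967 CPM with vehicle (SD, n = 4 each). The peak near MINDY4B in the lowest quintile (chr3:150844557-150844788) was above its complete vehicle level, with 7.67 ± 2.24 CPM with estradiol, 0.934 ± 0.284 CPM with vehicle (SD, n = 4 each) and 2.24 CPM in complete vehicle.

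Wider peaks were called higher more often. Of tested peaks of 200 bp, the shortest in the table, 0.407% were higher, against 0.810% of those above 200 and up to 300 bp and 1.33% of those over 300 bp. Starting level moved with width only in part, with a median of 1.20, 3.42 and 2.29 CPM with vehicle in these classes.

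Gained peaks were scarce at gene starts. Of the 18081 tested peaks with a middle within 1 kb of a protein-coding gene start, 22 were higher (0.122%), against 0.813% of all tested peaks. Where a gene had no listed start, both edges of its interval served, so this class can include gene ends. With only nearest genes that had a listed start, the share was 0.105%. Without vehicle replicate 4 the share within 1 kb was 0.0658%. The share was 0.885% at 1 to 10 kb, 0.892% at 10 to 100 kb and 0.936% beyond 100 kb, and these 3 classes held 229, 658 and 365 higher peaks. The scarcity was present at each starting level. In the highest quintile, 10 of 11400 peaks within 1 kb were higher (0.0877%), against 58 of 3787 beyond 100 kb (1.53%). In the lowest quintile the shares were 0.118%, which is 1 of 845 peaks, and 1.30%. Higher peaks within 1 kb also changed less, with a median log2 fold change of 0.85. The 35 lower peaks had 1, 6, 13 and 15 members in the 4 classes. Peaks are not replicates, so these shares are descriptions with no test.

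**Figure D3:**
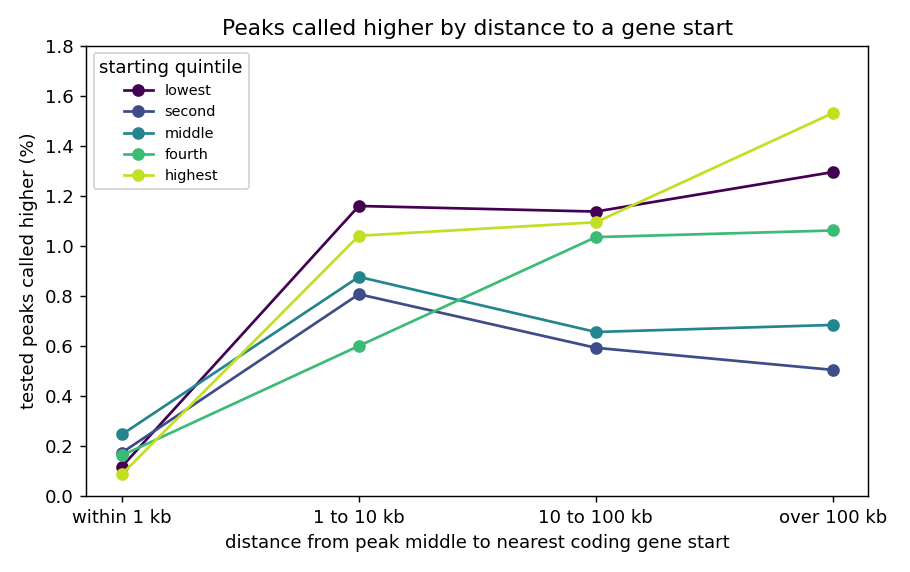
Percent of tested peaks called higher (vertical axis) in 4 classes of distance from the peak middle to the nearest protein-coding gene start, with 1 line for each quintile of starting accessibility. All 5 lines are lowest within 1 kb, at 0.0877% in the highest quintile.

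The share of all reads near genes was tested over libraries. Peaks within 1 kb of a start held 33.3% ± 0.476 of counts with estradiol and 33.3% ± 0.267 with vehicle (SD, n = 4 each). No distance class differed in an exact two-sided permutation test of 4 against 4 libraries, where the adjusted p was 1 in each class and the smallest unadjusted p the design allows is 0.0286. In quintiles set by the 16 complete-medium libraries, the highest quintile held 64.5% ± 0.688 of counts with estradiol and 64.1% ± 0.692 with vehicle (SD, n = 4 each). No quintile passed that exact test either, with an adjusted p of 0.486 in each. A p that misses the threshold does not show that the shares were equal.

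The gained peaks at gene starts included known estrogen-regulated genes. At the start of GREB1, which encodes an estrogen receptor cofactor (chr2:11483046-11483547), accessibility was 21.4, 21.7, 21.9 and 24.2 CPM with estradiol, against 14.98, 17.3, 8.82 and 16.1 CPM with vehicle. Its log2 change was 0.53 (SE 0.13, edgeR adjusted p = 0.0126), and the call was lost without estradiol replicate 4 or vehicle replicate 1, 3 or 4, where the adjusted p was 0.071, 0.0852, 0.0563 and 0.0515. A peak of the class within 1 kb lay outside the interval of WDR45B, an autophagy gene, 0.314 kb from its edge (chr17:82613985-82614511). It met no promoter window, so it is not shown to lie at a gene start. Its values were 18.5, 14.8, 14.6 and 14.9 CPM with estradiol, against 6.11, 5.84, 5.61 and 4.55 CPM with vehicle. This peak had the smallest p of the class, at a log2 change of 1.52 (SE 0.20) and an adjusted p of 1.32e-07 by edgeR. Near the start of THSD4, an extracellular matrix gene, 1 of its 2 called peaks had 37.2, 40.7, 34.7 and 33.9 CPM with estradiol, against 22.8, 22.6, 10.4 and 17.8 CPM with vehicle. The 22 peaks also lay at PHACTR1, TTC39A, SERPINA1, AGR3, PDZK1 and C5AR2, among others. The call was lost in 7 of 17 alternative fits at PDZK1 and in 4 of 17 at AGR3, with the largest adjusted p by edgeR at 0.415 and 0.104.

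Letters of the response element were more common at gained promoter peaks. Among 35116 promoter windows, 15642 met a tested peak and 28 met a higher peak, and these 28 share 23 peaks. The half-site GGTCA, on either strand, was in 24 of the 28 windows (85.7%), against 34.2% of windows with a tested peak and 37.4% of all windows. A match in a window can lie outside the peak, and only 8 of the 28 windows belong to coding genes. The SP/KLF letters GGGCGG, a mark of GC-rich promoters, were in 10.7% of the 28 windows, against 68.5% of windows with a tested peak. Read peak by peak, over 11420 tested peaks that met a window by at least 100 bases, 0.0927% of those with no half-site in the overlap were higher. The share was 0.258% with 1 half-site, 1.02% with 2 and 5.56% with 3 or more, from 8, 6, 4 and 4 higher peaks. Counted by peak, 8 of these 22 higher peaks held no half-site in the overlap, against 8626 of all 11420. With the element at 1 letter off, 5 of 35 peaks were higher. Forkhead letters TGTTTAC were in 10.7% of the 28 windows, against 2.76% of windows with a tested peak, which is 3 windows over 2 peaks. The half-site letters lie within the full element, and the matches are descriptions of letters in these windows.

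The most accessible of these, and the one with the smallest p, was the peak inside RARA, the retinoic acid receptor alpha gene, whose window is LOC105371934 above. It had 65.8, 67.0, 81.1 and 77.8 CPM with estradiol, against 28.6, 24.1, 38.5 and 33.3 CPM with vehicle. The groups did not overlap, and the log2 fold change was 1.28 (SE 0.11, edgeR adjusted p = 1.9e-13). Larger folds were found in weaker windows, up to a log2 fold change of 3.07 at the noncoding gene LOC107986054. The C5AR2 peak, at a complement receptor gene, had 29.0, 29.7, 33.2 and 29.8 CPM with estradiol, against 19.2, 19.3, 14.4 and 21.7 CPM with vehicle. The MICOS10 peak, at a gene for a mitochondrial cristae protein, averaged 31.8 ± 4.397 CPM with estradiol and 21.5 ± 3.97 CPM with vehicle (SD, n = 4 each). At MICOS10 (chr1:19596760-19597056) the call was lost in 8 of 17 alternative fits, with the largest adjusted p, 0.234, without estradiol replicate 1 (edgeR).

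Gained peaks lay close to each other. Of the 1274 higher peaks, 469 (36.8%) had another within 50 kb. Of the 10720 tested peaks within 50 kb of another higher peak, 4.38% were higher, against 0.551% of tested peaks outside that reach. The share was highest at short range, at 21.2% within 1 kb, 22.5% at 1 to 2 kb and 11.6% at 2 to 5 kb, and it was 0.838% at 50 to 100 kb. Peaks that were not called followed the same course. Those within 1 kb of a higher peak had a median log2 fold change of 0.34, with 84.9% above 0, and at 20 to 50 kb the median was 0.04. Higher peaks also lay in denser stretches, with a median of 11 tested neighbours within 50 kb, against 8 for all tested peaks. Of the 35 lower peaks, 2 (5.71%) lay within 50 kb of a higher one, near the 6.84% of all tested peaks.

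**Figure D4:**
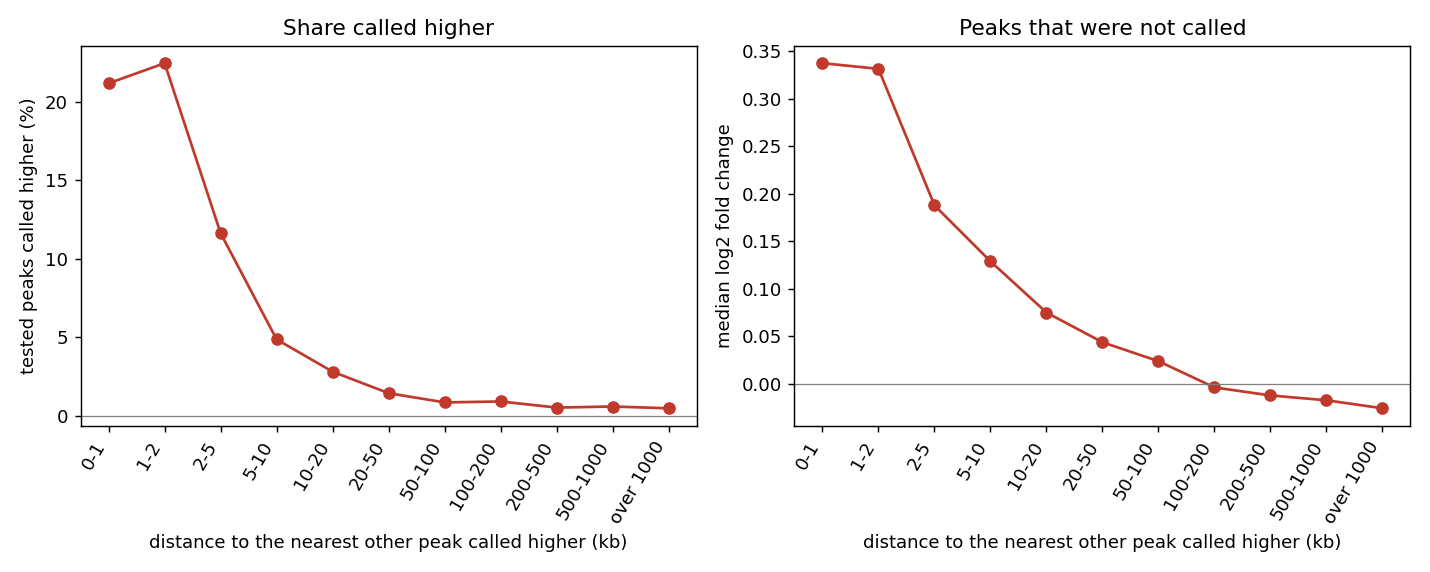
Left, percent of tested peaks called higher by distance to the nearest other peak called higher, in kb. Right, median log2 fold change of the peaks that were not called, which is 0.34 within 1 kb and nears 0 beyond 100 kb.

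Joining higher peaks within 50 kb of each other gave 983 groups, of which 805 held 1 peak, 118 held 2 and 60 held 3 or more. Each group ran from its first to its last higher peak, so the calls set its limits. The shares of its tested peaks that were higher, or above 0, are thus raised by construction and are descriptions. The largest spanned GREB1 (chr2:11483046-11570272), with 11 of its 28 tested peaks higher and 27 of the 28 above 0. Its lead peak, inside the gene (chr2:11531048-11531281), had 19.5, 21.7, 26.1 and 25.7 CPM with estradiol, against 5.42, 4.48, 7.22 and 6.55 CPM with vehicle. The second lay between PGR and TRPC6, a cation channel gene, (chr11:101299278-101442015), with 10 of 28 tested peaks higher. Its strongest member (chr11:101441750-101442015) had 56.9, 62.2, 71.0 and 64.8 CPM with estradiol, against 23.2, 21.1, 18.04 and 20.1 CPM with vehicle. Both groups of libraries were separate at these peaks.

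The third largest, inside GSE1 (chr16:85453829-85492291), had 9 of 12 tested peaks higher and all 12, these 9 included, above 0. Its lead peak (chr16:85466009-85466283) averaged 107 ± 13.5 CPM with estradiol and 30.6 ± 1.30 CPM with vehicle (SD, n = 4 each). Clusters of 7 higher peaks lay at THSD4, at GPR132 and CDCA4, and at NHERF1 and NAT9, where 7 of 13, 7 of 17 and 7 of 10 tested peaks were higher. Without vehicle replicate 4, only 2 of the 7 at GPR132 and CDCA4 were still called. NHERF1 encodes a scaffold protein of the cell membrane and is a known estrogen-induced gene. A cluster of 6 lay between STC2, which encodes a secreted stanniocalcin, and BOD1, with its lead peak (chr5:173472660-173473125) at 30.3 ± 5.34 CPM with estradiol and 8.58 ± 1.13 CPM with vehicle (SD, n = 4 each). That peak averaged 63.1 CPM in complete vehicle. Clusters of 5 lay inside GATA4, a transcription factor gene, at a second place in GSE1, and near KCTD6, where the lead peak averaged 32.8 ± 1.96 CPM with estradiol and 10.8 ± 1.89 CPM with vehicle (SD, n = 4 each). Of the 5 higher peaks at GATA4, 3 were called without vehicle replicate 4, and of the 5 near KCTD6, 3 without estradiol replicate 3. Neighbouring peaks share a locus and are not independent.

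**Figure D5:**
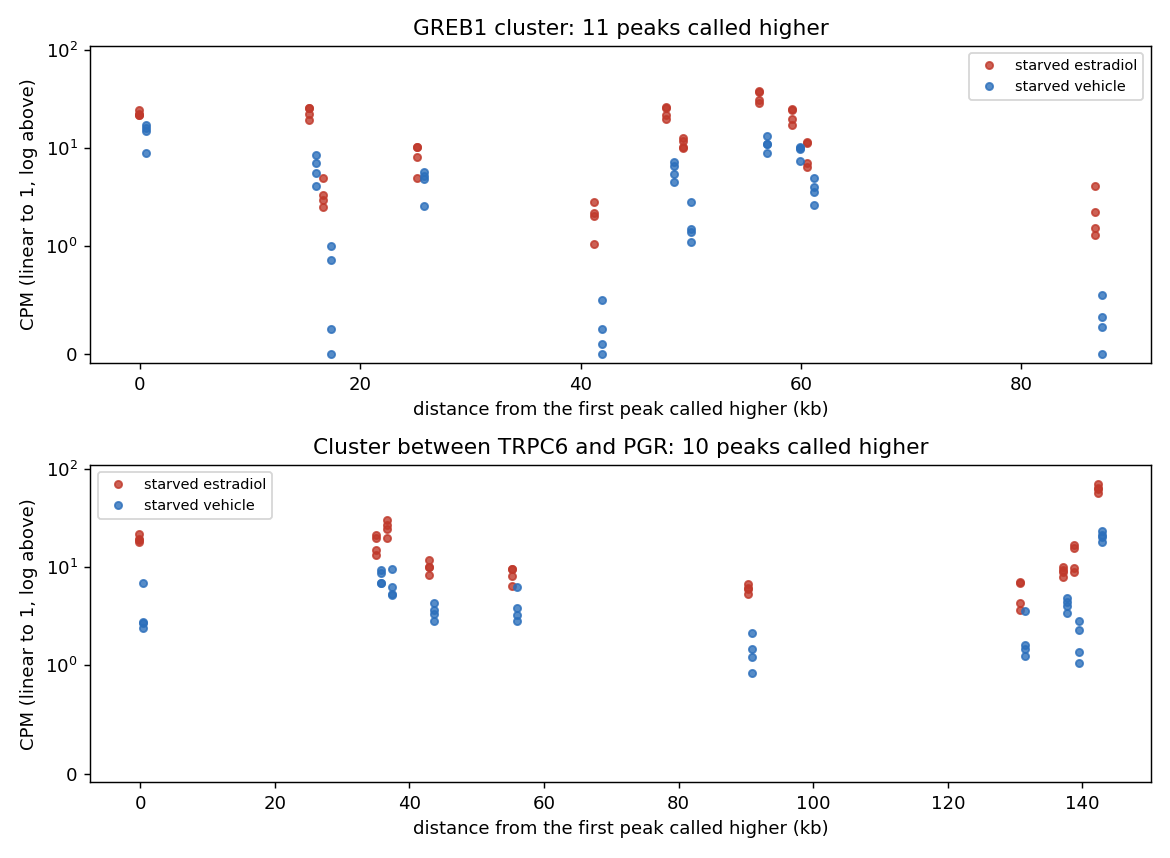
CPM in every library of the higher peaks in the clusters at GREB1 (top, 11 peaks) and between TRPC6 and PGR (bottom, 10 peaks), by distance from the first such peak in kb, with estradiol drawn just left of vehicle. The vertical axis is linear up to 1 CPM and logarithmic above.

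Estrogen-induced genes carried the largest share of gains among 11 lists of genes. The lists were chosen with earlier results of these data known, so their ranking is a description. Of 666 tested peaks within 50 kb of 30 estrogen-induced genes, 55 were higher (8.26%) and 0 lower, against 0.813% higher among all tested peaks, and the list median log2 fold change was 0.22 against -0.01. Higher peaks lay near 19 of the 30 genes, with 11 at GREB1, 7 at NHERF1, 5 at PGR and 4 each at CA12, SIAH2 and IGFBP4. At SIAH2, a ubiquitin ligase gene (chr3:150756496-150756701), the values were 26.5, 25.7, 30.3 and 26.5 CPM with estradiol, against 8.99, 9.32, 10.4 and 10.2 CPM with vehicle. At ADCY9, an adenylate cyclase gene, a peak 36.0 kb away averaged 30.2 ± 2.88 CPM with estradiol and 8.92 ± 1.78 CPM with vehicle (SD, n = 4 each).

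Estrogen-repressed genes had no called peaks. None of 216 peaks near 12 such genes passed the edgeR test in either direction, and their median log2 fold change was -0.01. Over all tested peaks 0.813% were higher and 0.0223% lower. At so small a share of lower peaks, a list of this size cannot show whether closing was rarer or more common there. The peak with the smallest p, 9.70 kb from CCNG2, a cyclin gene, averaged 1.59 ± 0.547 CPM with estradiol and 3.29 ± 1.06 CPM with vehicle (SD, n = 4 each, edgeR adjusted p = 0.348). Luminal identity genes had 20 higher peaks and 1 lower of 452 (4.42% higher), the lower one near FOXA1, the forkhead factor gene. Growth factor and receptor genes had 13 higher of 527 (2.47%), near EGFR, ERBB4, FGFR2, IGF1R, IGFBP4 and FGF12. Housekeeping genes had 0 of 284 called by edgeR. Immediate early genes had 4 higher of 320 (1.25%), near EGR3 and MAFF, which is near the share over all tested peaks.

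Single peaks in these lists are given as examples, chosen for a small p in this contrast. Inside IGFBP4, which encodes a binding protein of insulin-like growth factors (chr17:40448739-40449066), the values were 29.3, 34.96, 44.2 and 42.8 CPM with estradiol, against 8.87, 10.8, 9.62 and 10.6 CPM with vehicle. Inside ERBB4, a receptor tyrosine kinase gene (chr2:211423117-211423390), they averaged 13.6 ± 2.51 CPM with estradiol and 3.45 ± 0.738 CPM with vehicle (SD, n = 4 each). Near MLPH, which encodes melanophilin (chr2:237559017-237559269), the averages were 15.3 ± 3.25 CPM with estradiol and 4.84 ± 0.777 CPM with vehicle (SD, n = 4 each). Near XBP1, a transcription factor of the unfolded protein response (chr22:28793009-28793381), they were 18.8 ± 1.84 CPM with estradiol and 7.85 ± 2.49 CPM with vehicle (SD, n = 4 each). Inside SLC22A5, a carnitine transporter gene (chr5:132378630-132378899), they were 34.9 ± 2.68 CPM with estradiol and 13.8 ± 2.50 CPM with vehicle (SD, n = 4 each). The groups were separate at each of these peaks, which follows largely from that choice.

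Ion channel and transporter genes had 14 higher peaks of 293 (4.78%), 7 of them at NHERF1. Proliferation genes had 7 of 263 (2.66%), near CDC6, CDT1 and TOP2A, and those near CDC6 and TOP2A are also the RARA and IGFBP4 peaks. Markers of other cell types stayed near the 0.813% of all tested peaks. They had 1 higher peak of 96 (1.04%) near blood genes and 2 of 213 (0.939%) near basal and mesenchymal genes. Both of the last lay closer to the luminal gene KRT19, at 7.94 and 8.71 kb. At the peak nearest each luminal marker, 10 of 10 markers had one, and the summed level was 305 to 317 CPM with estradiol, against 283 to 323 CPM with vehicle. Basal and mesenchymal markers summed to 137 to 154 CPM with estradiol, against 145 to 154 CPM with vehicle, and none of the marker peaks was called by edgeR.

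The closing peaks were few, with a median log2 fold change of -1.003, and 18 of the 35 changed at least 2-fold, down to -2.67. The smallest p belonged to a peak 417 kb from TBL1XR1, a corepressor subunit gene (chr3:177618880-177619124), with 9.51, 13.6, 8.08 and 10.8 CPM with estradiol, against 14.3, 18.03, 19.2 and 17.7 CPM with vehicle. Its log2 fold change was -0.70 (SE 0.15, edgeR adjusted p = 0.00212), and it was not called without estradiol replicate 3 (adjusted p = 0.083). A peak inside ELOVL5, a fatty acid elongase gene (chr6:53325853-53326053), had 4.50, 4.16, 4.00 and 3.47 CPM with estradiol, against 7.15, 9.08, 5.61 and 7.19 CPM with vehicle. It was not called without vehicle replicate 2 (adjusted p = 0.104) or by DESeq2 (adjusted p = 0.176). The other named lower peaks lay nearest ATP10A, TNS3, AMBN, TMTC3, KLHDC1, CNTNAP5, SORCS1 and ST8SIA4, and none of the 35 kept its call in all 17 alternative fits.

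Both replicate sets showed the change. All 1274 higher peaks had a positive log2 fold change within replicates 1 and 2 and within replicates 3 and 4, and all 35 lower peaks a negative one in both. Since the same libraries chose the peaks, this is a description. In a test of the difference itself, edgeR called 0 peaks whose estradiol change differed between the sets, with 6606 at an unadjusted p under 0.05. That test had 2 libraries per treatment in each set, and its smallest adjusted p was 0.9999 (edgeR). It does not show that the sets were alike, and peaks with no difference also pass the unadjusted threshold. Library totals of the 8 starved libraries ran between 2422981 and 12140005 counts, with vehicle replicate 3 the shallowest. At that depth 150 of the 1274 higher peaks had no read in vehicle replicate 3, against at most 25 in any other vehicle library.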

How the data were processed

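The authors deposited 1 table of whole-number read counts for 189403 peaks in 24 libraries. Per the submitters' processing notes, the tools were cutadapt 1.8.1, Bowtie2 2.4.4 and SAMtools 1.9 with build hg38; the peak caller and any Tn5 shift were not given in the sources used. Peaks were kept by filterByExpr (minimum count 10, total 15) and tested with edgeR 4.0.16 in R 4.3.3, with TMM scaling, 6 group means and 18 residual degrees of freedom; CPM uses the TMM library sizes. DESeq2 was an alternative. The fit was tested on simulated data.

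Distance runs from the peak middle to the nearest protein-coding gene start in RefSeq (GRCh38.p14). Starts were listed for 79.1% of coding genes, and both interval edges served for the others. Named peaks were the 3 with the smallest p in each starting quintile and distance class, 10 lower peaks, cluster leads and up to 4 per gene list. Members, lists and rules were chosen with earlier results of these data known. The matches with 1 letter off, the peak-by-peak view of promoters and the other lower, promoter and cluster peaks were added after seeing the data. The result for the list of receptor cofactor genes is not reported here.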

Additional observations from a re-analysis of the deposited data

Results flagged for a closer look

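In 338 groups of 4 values (the named peaks and the shares of counts, by treatment), 1 library stood apart from its 3 replicates in 14, by a gap to the nearest other value beyond Dixon's critical value. Chance alone flags about 1 in 20 groups. In vehicle replicate 3, the shallowest starved library, values stood apart at 4 peaks. They were 6.82 CPM at the lead peak between PGR and TRPC6 (others 2.37 to 2.74), 15.2 CPM near CCNG2 (others 7.72 to 8.55), 3.21 CPM inside IGF1R (others 0.461 to 0.637) and 15.6 CPM at MICOS10 (others 22.6 to 23.97). In vehicle replicate 1, a second peak of the PGR and TRPC6 cluster was at 3.57 CPM (others 1.24 to 1.60) and a peak near MLPH at 3.69 CPM (others 5.10 to 5.37). In vehicle replicate 2, PDZK1 was at 0.995 CPM (others 1.84 to 2.00) and a lower peak inside CEP152 at 5.47 CPM (others 3.09 to 3.21). At the lower peak near SORCS1, estradiol replicate 2 was at 7.14 CPM (others 4.38 to 4.63) and vehicle replicate 4 at 7.64 CPM (others 9.62 to 9.70). In estradiol replicate 1, WDR45B was at 18.5 CPM (others 14.6 to 14.9) and a peak inside PEBP4 at 1.13 CPM (others 2.13 to 2.24). In estradiol replicate 2, SLC25A24 was at 11.4 CPM (others 7.40 to 7.84), and peaks over 100 kb from a start held 15.7% of counts. What set these values apart was not tested.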

How the results depend on the processing

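The count of higher peaks stayed within 1.5 times of 1274 in all planned fits, between 954 and 1210 when 1 starved library was left out; within replicates 3 and 4 alone, an alternative added after seeing the data, it was 829. The count of lower peaks was less stable. It was 21 with only the 8 starved libraries, 88 with a set term and 13 with DESeq2, and between 16 and 54 when 1 library was left out. Same-numbered estradiol and vehicle libraries deviated together with correlations of 0.126, 0.123, 0.034 and 0.054. Replicates 1 and 2 with estradiol correlated best with their own number, and replicates 3 and 4 did not. Replicates 1 and 2 of both groups deviated together, as did 3 and 4. Correlations were 0.014 to 0.126 within these sets and -0.118 to -0.032 across them. The main fit has no term for the sets, and what sets them apart is not given in the labels. With the replicate block, 1570 peaks were higher and 73 lower, and with the set term 1596 were higher and 88 lower. The percent called higher in the lowest starting quintile was 0.654 with no filter, 3.18 above the median abundance, 0.405 and 0.663 with crossed levels, and 0.188 or 0.214 with quintiles from all 24 or the 16 complete-medium libraries; it ran between 0.710 and 1.03 when 1 library was left out. In the highest quintile it was 0.725 with no filter, 0.510 in the second crossing, and 1.66 or 1.77 with those other quintiles. The order of the quintiles thus depends on the filter and on which libraries set the level. Near genes the percent called higher was between 0.0658 and 0.115 when 1 library was left out. The percent of higher peaks with another within 50 kb moved least, between 30.7 and 37.9 in the same fits. The difference in the share of counts changed sign within 1 kb (-0.155 to 0.227 percentage points), at 1 to 10 kb (-0.0978 to 0.138), at 10 to 100 kb (-0.115 to 0.0676) and over 100 kb (-0.147 to 0.0702), and 3 against 4 libraries cannot reach p = 0.05 in the exact test. Among named peaks, 68 of 110 higher and 0 of 35 lower were tested and kept their call in all 17 fits, 7 more higher ones kept it in the 15 or 16 fits that tested them, and none changed sign. The cause of these shifts was not tested.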
